A study of Mus musculus with 9 samples.

Results

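Genes of epithelial cells were followed in mouse embryonic stem cells whose cohesin subunit STAG3 was reduced by siRNA. The 10 genes are the regulators Rbm47, Grhl2, Esrp1 and Esrp2, the adhesion genes Cdh1, Epcam, Cldn6 and Lad1, and the keratins Krt8 and Krt18. The 10 genes were chosen from the 16636 genes of the deposited count table. For 3 of them, Rbm47, Grhl2 and Lad1, the choice rested on their differences between the groups in these libraries, so those differences are given as values with no test. The other 7 were chosen for what they are known to do, and their differences between the groups were tested.

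E14 is an established line of mouse embryonic stem cells, which the series describes as wildtype and in the naive state. The genotype label is wildtype for the untreated libraries, siLuc control for the siLuc libraries and Stag3 knockdown for the siStag3 libraries. Every group grew on fibronectin in 2i medium, which holds the MEK inhibitor PD0325901 and the GSK3 inhibitor CHIR99021, with LIF added. Untreated cells received no siRNA, siLuc cells received a control siRNA against luciferase, and siStag3 cells received siRNA against Stag3, with 3 libraries in each group. Transfection used RNAiMax with 50 pmol of siRNA at seeding and again on the next day, and lasted 48 h. The untreated cells therefore differ from the siStag3 cells in transfection as well as in the siRNA, while by the labels the siLuc cells were transfected too and differ in the siRNA. In Set 3, a subset described below, the siLuc library is of another experiment than the siStag3 library. The series describes the 3 libraries of a group as biological replicates, of 1 cell line, so p-values measure the spread between such cultures.

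Epithelial cells adhere through E-cadherin at adherens junctions, claudins at tight junctions and desmosomes, and their cytoskeleton holds pairs of type I and type II keratins. Grainyhead-like factors such as GRHL2 activate genes of this program, and the RNA-binding proteins ESRP1, ESRP2 and RBM47 set the splicing and stability of its transcripts. Naive embryonic stem cells share E-cadherin with epithelia, since it holds their colonies together, but they are not a keratin-rich epithelium.

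Libraries held 29332436 to 44527534 counts. They separated by set, a number in the column names (Set 1 or Set 3) whose meaning the labels do not give, and the first principal component (41.1% of the variance) placed all 3 Set 3 libraries apart from all 6 Set 1 libraries. Each group has 2 libraries of Set 1 (experiments 1 and 3) and 1 of Set 3 (experiment 5, or 1 in siLuc), so the set was a term in the test of edgeR, and values within each set are given where they matter. Stag3 itself was at 24.1, 24.3 and 28.6 CPM (counts scaled to the library total) in untreated cells, 22.5, 23.3 and 26.7 in siLuc and 13.5, 15.2 and 15.6 in siStag3, so the target was lower in every siStag3 library. The summed level of 8 embryonic stem cell markers was 4729 to 5230 CPM, against 2.90 to 4.46 for 9 primitive endoderm markers, 11.5 to 15.1 for the 7 listed of 8 trophoblast markers and 1.56 to 2.86 for the 6 listed of 7 fibroblast markers. In bulk RNA, fewer cells of a type and less RNA per cell cannot be told apart.

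The genes stood at very different levels. Compared per length, as CPM per kb of coding transcript, Cdh1 had a median of 172 over the 9 libraries (lowest 169, highest 180). By CPM it lay at percentile 98.7 of the 14246 genes tested, those that passed the low-count filter. Epcam followed at 12.5 (9.16 to 17.9) and Rbm47 at 5.03 (4.05 to 6.92). These first steps are separate, since no library of one gene reached the range of the next.

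Esrp2 was at 3.67 CPM per kb (2.94 to 4.51), Grhl2 at 2.71 (2.29 to 3.63), Cldn6 at 1.66 (0.979 to 3.09), Lad1 at 1.33 (0.758 to 2.35) and Krt8 at 1.07 (0.875 to 1.37). Within each of the 9 libraries, however, Rbm47 was above Esrp2 and Esrp2 above Grhl2, although their ranges over libraries overlapped. Below them the order changed between libraries. Grhl2 was above Cldn6 in 6 of 9, which were the libraries of Set 1, and below it in those of Set 3. Cldn6 was above Lad1 in 7 and Lad1 above Krt8 in 7, so no order of these neighbours held in every library. Krt18 (0.351, from 0.219 to 0.527) and Esrp1 (0.119, from 0.0948 to 0.173) formed separate steps at the bottom, at percentiles 7.45 and 5.40. Against the name of an epithelial program, then, only Cdh1 was abundant. Epcam and Rbm47 were near the middle of the genes tested (percentiles 47.2 and 46.3). Krt18 and Esrp1 were among the lowest of the genes tested, with Krt8 at percentile 22.1. Listed genes that did not pass the low-count filter are not in these percentiles. Esrp1 had only 10 to 22 counts per library and Krt18 10 to 28, where 3 counts, taken as the limit of detection, equal 0.0650 to 0.0990 CPM. That limit covers counting error only.

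**Figure D1:**
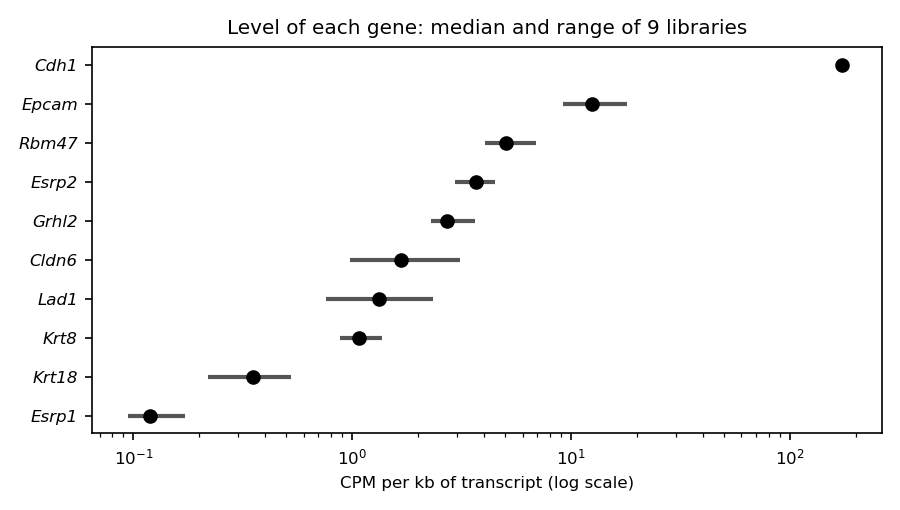
Level of each of the 10 genes in CPM per kb of coding transcript on a log axis, where points are the median and bars the lowest and highest of 9 libraries. Cdh1 stands at 172, far above Epcam at 12.5, and Krt18 and Esrp1 are lowest at 0.351 and 0.119.

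Rbm47, an RNA-binding protein and cofactor of APOBEC1 in RNA editing, had the highest levels in the control siRNA cells. Its level was 14.8 and 14.4 CPM in the untreated Set 1 libraries and 15.2 in Set 3. In siLuc it was 19.7 and 19.1 in Set 1 and 20.3 in Set 3, and in siStag3 13.5 and 14.3 in Set 1 and 11.9 in Set 3. Every siLuc library was above every other library, and every siStag3 library was below every untreated one, though in Set 1 by little.

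The group means of Rbm47 were 14.8 ± 0.396, 19.7 ± 0.626 and 13.2 ± 1.25 CPM (SD, n = 3). The log2 fold change was 0.41 in siLuc against untreated cells (0.41 within each set), -0.57 in siStag3 against siLuc and -0.16 in siStag3 against untreated cells. Within the sets, the siStag3 difference from siLuc was -0.48 in Set 1 and -0.77 in Set 3, and the difference from untreated cells was -0.07 and -0.36, so the Set 3 library gave the larger value in both. The first 2 comparisons share the siLuc libraries. In the reference, Rbm47 shares 3.41% of its 31-base sequences with other transcripts and overlaps Gm43323 on the same strand and Gm26725 on the other.

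Grhl2, the Grainyhead-like transcription factor of the group, was lower in both transfected groups than in untreated cells. It was at 7.29 and 7.53 CPM in untreated Set 1 libraries and 5.96 in Set 3. In siLuc these were 6.40, 5.60 and 4.76, and in siStag3 5.17, 5.61 and 4.95. All 3 siStag3 libraries were below all untreated ones, while siLuc overlapped both other groups.

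For Grhl2 the log2 fold change was -0.31 in siLuc against untreated cells (-0.30 within Set 1 and -0.32 within Set 3), -0.40 in siStag3 against untreated cells (-0.45 and -0.26) and -0.09 in siStag3 against siLuc. Between the 2 transfected groups the sign differed by set, at -0.15 in Set 1 and 0.06 in Set 3. In the reference, Grhl2 shares 2.04% of its 31-base sequences with Gm16136, which overlaps it on the opposite strand.

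**Figure D2:**
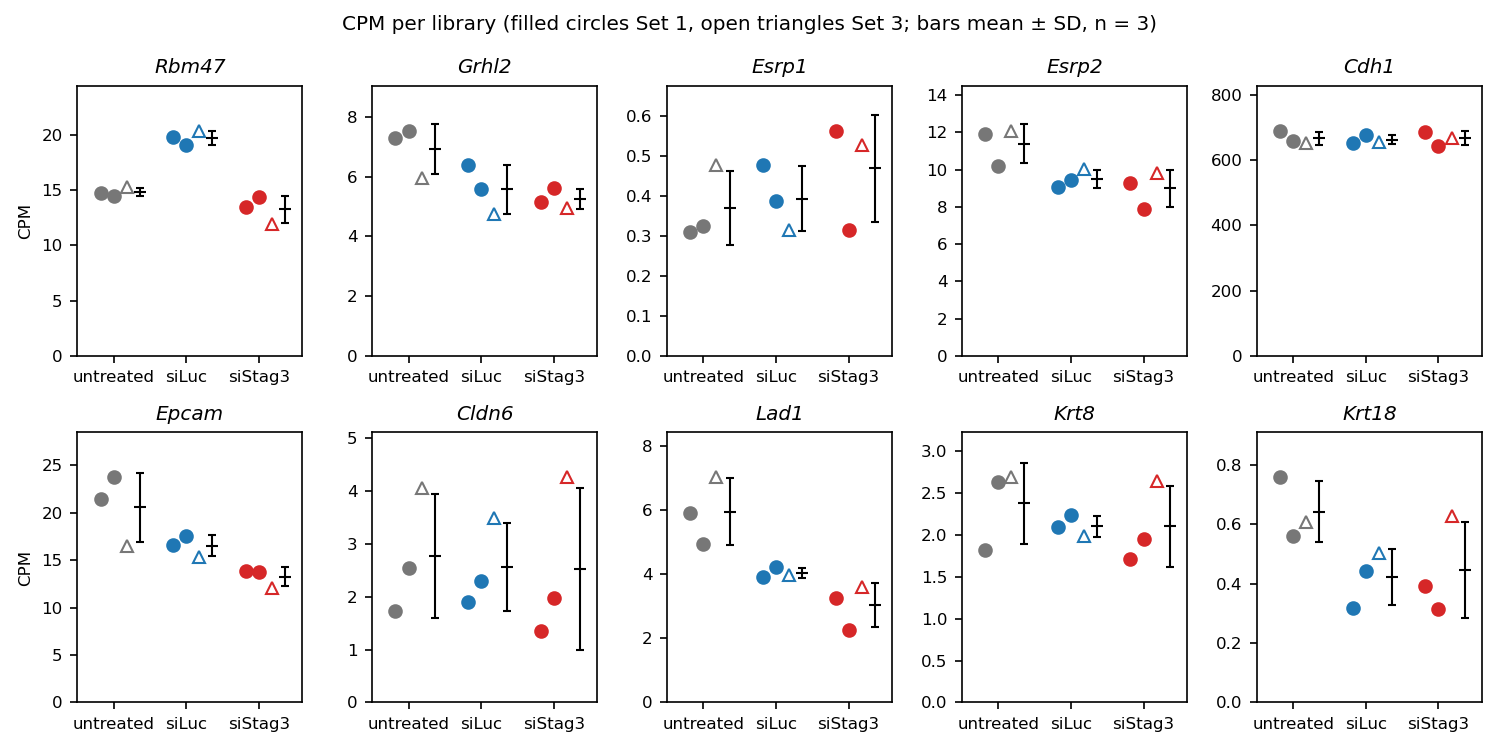
CPM of each of the 10 genes in every library by group, with Set 1 and Set 3 marked apart and the group mean shown. Rbm47 is high only in the siLuc libraries (19.1 to 20.3 CPM), Epcam and Lad1 step down from untreated to siStag3, Cdh1 is level, and Cldn6 separates by set.

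The splicing regulators ESRP1 and ESRP2 are paralogs that set epithelial exon choice, and their genes differed in level in these cells. Per length, Esrp2 was 20.1 to 46.9 times as high as Esrp1 over the 9 libraries. Esrp2 was at 11.9, 10.2 and 12.1 CPM in untreated cells, 9.07, 9.44 and 10.0 in siLuc and 9.27, 7.88 and 9.83 in siStag3, with the Set 3 library last in each. Every transfected library was below every untreated one.

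That separation of Esrp2 did not pass the threshold, an adjusted p of 0.05 over all 14246 genes tested. The log2 fold change was -0.26 in siLuc against untreated cells (SE 0.0960, edgeR adjusted p 0.110), -0.34 in siStag3 against untreated cells (SE 0.0965, edgeR adjusted p 0.0854) and -0.08 in siStag3 against siLuc (SE 0.0983, edgeR adjusted p 0.845). Both sets gave a lower value in siStag3 than in untreated cells, by -0.36 in Set 1 and -0.29 in Set 3. After GC correction Esrp2 was at -0.10 in siLuc against untreated cells (edgeR adjusted p 0.513). In siStag3 against untreated cells it was then at -0.25 (edgeR adjusted p 0.0874). Esrp2 shares 8.07% of its 31-base sequences with other transcripts and overlaps Nfatc3 (2454 to 3656 counts per library) on the opposite strand, and the strand setting of the counting is not given in the sources used here. Esrp1 gave log2 differences of 0.07, 0.33 and 0.25 in the same order (SE 0.346 to 0.357), too few counts to resolve.

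Epcam, a cell surface adhesion molecule of epithelia and embryonic stem cells, fell in siStag3 against untreated cells. It was at 21.4 and 23.7 CPM in untreated Set 1 libraries and 16.5 in Set 3. In siLuc these were 16.6, 17.6 and 15.4, and in siStag3 13.9, 13.8 and 12.1. Every siStag3 library was lower than every library of the other groups, and the siLuc libraries lay between and overlapped the untreated range.

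The fall of Epcam was -0.62 on the log2 scale (SE 0.0842, edgeR adjusted p 0.00141), with -0.70 within Set 1 and -0.45 within Set 3. The mean moved from 20.6 ± 3.67 CPM in untreated cells to 13.3 ± 0.990 in siStag3 (SD, n = 3), with 16.5 ± 1.11 in siLuc. It was the only one of the 7 tested genes to pass in siStag3 against untreated cells, where 2.53% of all genes tested passed and 1.46% passed with a fall. Without the set term the value was -0.63 and the adjusted p 0.332.

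Against siLuc, Epcam gave -0.32 (SE 0.0856, edgeR adjusted p 0.394), with -0.31 within Set 1 and -0.34 within Set 3. In siLuc against untreated cells it gave -0.30 (SE 0.0828, edgeR adjusted p 0.0540), with -0.40 and -0.10 in the sets. Neither of these differences passed on its own. The DESeq2 Wald test called the second of them (adjusted p 0.0340), and the GC correction took its size to -0.19 (edgeR adjusted p 0.146).

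Cdh1, which encodes E-cadherin, was level across the groups within narrow limits. It was at 689, 656 and 652 CPM in untreated cells, 652, 677 and 656 in siLuc and 687, 644 and 666 in siStag3. The groups overlapped fully, with means of 666 ± 19.9, 662 ± 13.1 and 666 ± 21.4 CPM (SD, n = 3). The 95% interval of the log2 fold change was -0.10 to 0.12 in siStag3 against siLuc, -0.12 to 0.10 in siLuc against untreated cells and -0.11 to 0.11 in siStag3 against untreated cells.

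Per length, the Cdh1 level was 9.59 to 13.7 times Epcam in untreated cells, 13.3 to 14.8 times in siLuc and 16.2 to 19.1 times in siStag3. The siStag3 range lay above both others, and the siLuc and untreated ranges overlapped.

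Lad1 encodes ladinin, a protein of the basement membrane zone of epithelia, and had the largest difference of the 10 genes in siStag3 against untreated cells. It was at 5.92 and 4.93 CPM in untreated Set 1 libraries and 7.02 in Set 3. In siLuc these were 3.92, 4.22 and 3.97, and in siStag3 3.26, 2.27 and 3.60. The 3 groups did not overlap, and the order from untreated to siLuc to siStag3 held in both sets.

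For Lad1 the log2 fold change was -0.55 in siLuc against untreated cells, -0.42 in siStag3 against siLuc and -0.97 in siStag3 against untreated cells. Against untreated cells of the same set, the siLuc libraries were at 72.2% and 77.8% in Set 1 and 56.5% in Set 3, and the siStag3 libraries at 60.1%, 41.8% and 51.2%. Within Set 1 and Set 3 the siStag3 difference from untreated cells was -0.96 and -0.95, but that from siLuc was -0.56 and -0.14. Lad1 shares none of its 31-base sequences with another transcript.

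RefSeq promoters of GRCm38.p6 cover 6 of the 10 genes, and the 250 bases before the start are printed for the adhesion genes Epcam and Lad1, which were lower with no overlap in siStag3 against each other group. Rbm47 was lower in the same way, and its promoters hold neither motif named here. Lad1 and Rbm47 were chosen by such differences. Of all genes, 3.41% were lower with no overlap in siStag3 against siLuc and 5.38% in siStag3 against untreated cells. Capitals mark CACCTG or its reverse complement CAGGTG, an E-box that the Snail and ZEB repressors bind. Epcam is at chr17:87635729-87635978 and Lad1 at chr1:135818348-135818597, both on the plus strand.
Epcam: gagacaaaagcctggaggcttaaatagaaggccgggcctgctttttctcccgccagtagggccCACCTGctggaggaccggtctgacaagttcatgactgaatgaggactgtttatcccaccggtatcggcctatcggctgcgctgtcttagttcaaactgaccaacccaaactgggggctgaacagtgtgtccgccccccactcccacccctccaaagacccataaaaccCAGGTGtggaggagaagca
Lad1: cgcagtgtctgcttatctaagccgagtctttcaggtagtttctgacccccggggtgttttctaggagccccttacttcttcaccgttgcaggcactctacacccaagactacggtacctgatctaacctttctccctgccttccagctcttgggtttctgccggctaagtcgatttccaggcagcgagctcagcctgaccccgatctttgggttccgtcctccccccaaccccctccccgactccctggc
Epcam holds the E-box 187 and 19 bases before its start, and Lad1 holds none. Among the 6 genes, 4 hold one (Epcam, Cldn6, Krt8 and Krt18), against 19.434% of 27025 genes with a promoter in the table over the same length. The letters of the Grainyhead core, AACCNGTT on either strand, occur in none of the 6 over a window of 300 bases, against 2.346% of these genes. The bases just after the Cldn6 start were not found in its coding transcripts in the reference, unlike those of Epcam, Krt8 and Krt18. A match describes letters only, and the E-box was searched after the values were seen.

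Cldn6, a claudin of embryonic epithelia, and the keratins showed no difference past the threshold between the groups. Cldn6 was at 1.74, 2.54 and 4.05 CPM in untreated cells, 1.91, 2.29 and 3.50 in siLuc and 1.35, 1.99 and 4.26 in siStag3, with the Set 3 library highest in each group. Krt8, the type II keratin of simple epithelia, was at 1.82 to 2.69 CPM in untreated cells, 1.98 to 2.24 in siLuc and 1.71 to 2.64 in siStag3. The 3 groups overlapped for both genes. In siStag3 against siLuc the log2 difference was -0.09 for Cldn6 (95% interval -0.52 to 0.34) and -0.02 for Krt8 (-0.43 to 0.38), so these counts leave room for sizeable differences in either direction.

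Krt18, the type I partner of Krt8, was at 0.757, 0.561 and 0.607 CPM in untreated cells, 0.318, 0.442 and 0.504 in siLuc and 0.393, 0.315 and 0.627 in siStag3. The siLuc libraries were all below the untreated ones, by -0.59 on the log2 scale (SE 0.311, edgeR adjusted p 0.227), and the siStag3 libraries overlapped both. Per length, Krt8 was 1.77 to 4.84 times Krt18. Krt8 shares 36% and Krt18 11.4% of their 31-base sequences with pseudogenes and other transcripts, so both counts are uncertain in how such reads were assigned.

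**Figure D3:**
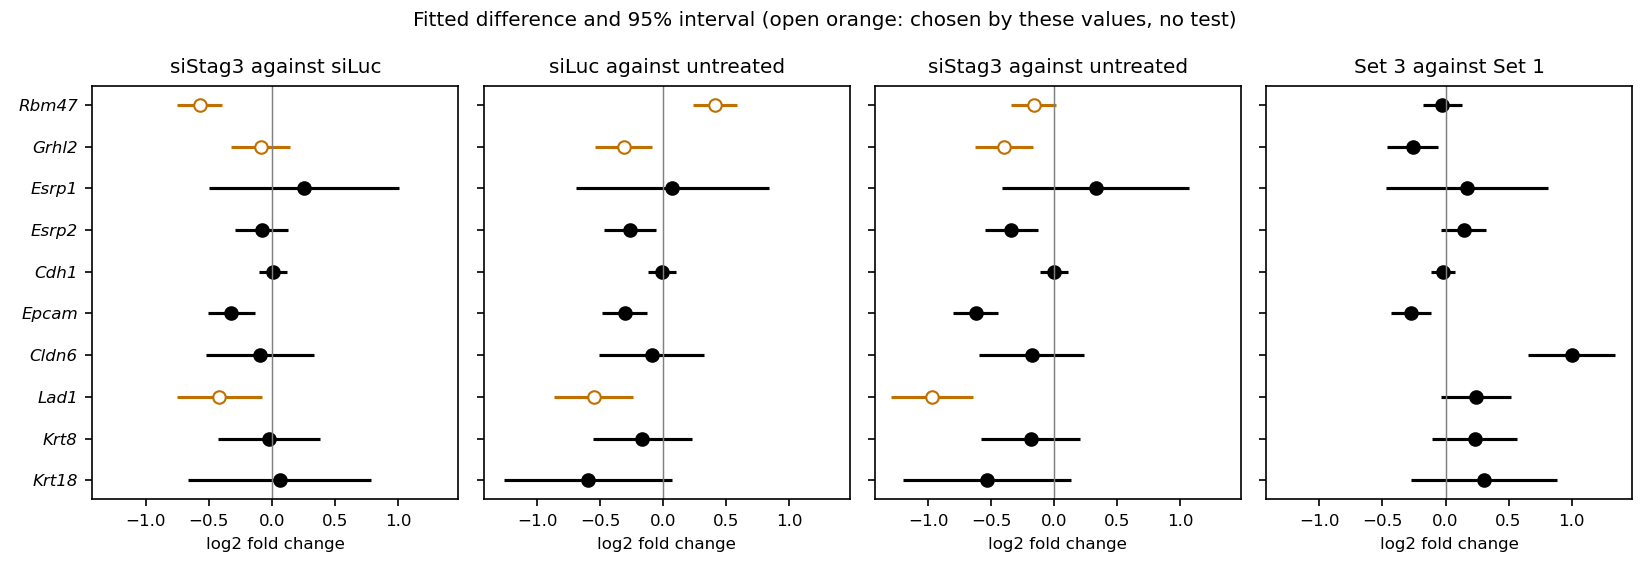
Log2 fold change of the 10 genes in the 3 comparisons of groups and in Set 3 against Set 1. Bars are 95% intervals from the edgeR fit with the set term. Open orange points mark the 3 genes given with no test between groups. These 3 were chosen by their differences between groups, so their bars there cannot be read as a test. Cdh1 sits at 0 with narrow intervals in the 3 comparisons of groups, and the points of Epcam and Lad1 lie below 0 in the same 3. The point of Rbm47 is positive in siLuc against untreated cells and negative in siStag3 against siLuc.

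Counted over the 7 genes chosen by function, leaving out the 3 that were chosen by these differences, 6 of 7 were lower in siStag3 against untreated cells, as were 51.4% of all genes tested. Cdh1 was among these 6 at -0.0002, and at 0.029 after GC correction, where Esrp2, Epcam, Cldn6, Krt8 and Krt18 stayed below 0. The median of the 7 was -0.19, against -0.01 over all genes tested. Esrp2 and Epcam had all siStag3 libraries below all untreated ones, as had 5.38% of all genes. In siLuc against untreated cells 6 of 7 were lower, against 50.4% of all genes, with a median of -0.16 (-0.0024 over all genes). There, Esrp2 and Krt18 were lower with no overlap, against 10.3% of all genes. This lowering was not kept by all 6 after GC correction. The values in siLuc against untreated cells were then 0.04 for Esrp1, -0.10 for Esrp2, 0.04 for Cdh1 and -0.19 for Epcam. They were 0.02 for Cldn6, -0.02 for Krt8 and -0.45 for Krt18. These 2 comparisons share the untreated libraries.

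In siStag3 against siLuc, the comparison in which both groups were transfected, 4 of 7 were lower, against 51.7% of all genes, and the median was -0.02 (-0.0048 over all genes). Of the 7, Epcam was lower with no overlap, against 3.41% of all genes. None of the 7 tested genes passed with edgeR, where 0.0281% of all genes did. At an unadjusted p under 0.05 there was 1 of the 7, Epcam, against 7.88% of all genes, and DESeq2 called 0. In siLuc against untreated cells 0 of 7 passed with edgeR, against 4.20% of all genes. There 2 of the 7, Epcam and Esrp2, had an unadjusted p under 0.05, against 27.8% of all genes, and DESeq2 called 1, Epcam.

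Differences between the sets were tested for all 10 genes. In Set 3 against Set 1, 3 of 10 passed, against 42.7% of all genes. Cldn6 was higher in all 3 Set 3 libraries (3.50 to 4.26 CPM) than in all 6 Set 1 libraries (1.35 to 2.54), by 1.00 on the log2 scale (SE 0.161, edgeR adjusted p 0.000329), where 13.3% of all genes were higher with no overlap. Epcam was lower in Set 3, by -0.27 (SE 0.0738, edgeR adjusted p 0.00981). Without the untreated library of Set 3 the Epcam value was -0.17 (edgeR adjusted p 0.143).

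Grhl2 was lower in Set 3 too, by -0.26 (SE 0.0934, edgeR adjusted p 0.0379), near the threshold. The adjusted p was 0.0588 with the GC correction and 0.0884 with DESeq2, and 3 of 9 fits that left out 1 library called it. The highest of these adjusted p-values was 0.181, without the untreated library of Set 3, and the call was also lost without either untreated Set 1 library, siLuc Set 1 experiment 1, siLuc Set 3 or siStag3 Set 1 experiment 3. The other 7, Rbm47 and Lad1 among them, did not pass. Whether the siRNA differences themselves changed with the set was tested by an interaction, in which no gene of the 10 passed. Of all 14246 genes, 160 passed in siStag3 against siLuc, 2 in siLuc against untreated cells and 1 in siStag3 against untreated cells. With 1 Set 3 library per group, the test cannot show that the siRNA differences were alike in both sets. Over the 10 genes the smallest edgeR adjusted p of the interaction was 0.262 in siStag3 against siLuc, 0.637 in siLuc against untreated cells and 0.566 in siStag3 against untreated cells.

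Among the wider lists of epithelial genes, few passed beside the 10 in the comparisons of groups. The counts below for siStag3 against untreated cells stand beside the 2.53% of all genes that passed there. In the desmosome and hemidesmosome list without Lad1, 11 of 13 genes were lower (median -0.20), where 51.4% of all genes were lower and the median of all was -0.01. Beside Lad1, which is given with no test, the desmoglein gene Dsg2 fell, from 106 ± 16.0 to 82.8 ± 14.1 CPM (log2 fold change -0.36, SE 0.0562, edgeR adjusted p 0.00401), with overlapping libraries. All 9 fits that left out 1 library called Dsg2. In the other lists, 6 of 14 regulators without Rbm47 and Grhl2 were lower (median 0.05), and 1 of 4 RBM47 relatives (0.12). Lower too were 8 of 13 adherens junction genes (-0.01), 13 of 19 tight junction genes (-0.05) and 3 of 7 keratins (0.04). For the apical and protease genes it was 7 of 11 (-0.06), and for the mesenchymal genes 7 of 13 (-0.04).

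In the adherens junction list of 13 tested genes, Epcam and Cdh3 passed, both lower. P-cadherin, encoded by Cdh3, fell by 0.45 on the log2 scale (SE 0.0850, edgeR adjusted p 0.0133), and passed in 5 of 9 fits that left out 1 library. Of 19 tight junction genes 1 passed, the Crumbs complex scaffold Patj, which fell by 0.58 (SE 0.109, edgeR adjusted p 0.0123, passed in 5 of 9). Of 14 epithelial regulators, leaving out Rbm47 and Grhl2, 1 passed, the trophectoderm factor Cdx2. Its fall was 1.11 (SE 0.258, edgeR adjusted p 0.0379, passed in 4 of 9) at a mean of 0.984 CPM. DESeq2 called 4 adherens junction genes, 1 tight junction gene and 0 regulators, so not Cdx2, and 417 of all genes. The highest of the left-out adjusted p-values was 0.109 for Cdh3 (without siStag3 Set 1 experiment 1), 0.0886 for Patj and 0.267 for Cdx2 (both without the untreated library of Set 3). Leaving out untreated Set 3 or siStag3 Set 1 experiment 1 ended the call of all 3 genes. Untreated Set 1 experiment 1 and siStag3 Set 1 experiment 3 did so for Cdh3 and Patj, and untreated Set 1 experiment 3, siLuc Set 1 experiment 1 and siStag3 Set 3 for Cdx2. Cdx2 is also a trophoblast marker, and the 7 listed trophoblast markers summed to 13.2 to 15.1 CPM in untreated cells, 13.6 to 15.1 in siLuc and 11.5 to 14.3 in siStag3, with Hand1 not in the table. One of these markers, Plet1, rose by 0.77 (SE 0.154, edgeR adjusted p 0.0170) and is named after its values were seen. The part of these markers in the result was not tested.

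No gene passed in siStag3 against untreated cells among the 7 keratins (1 at an unadjusted p under 0.05), the 11 apical and protease genes (1), the 13 mesenchymal genes (3) or the 4 RBM47 relatives and editing partners (1) in edgeR, and DESeq2 called 0 in each. None of the calls named from these lists passed without the set term. The GC correction added calls for the keratin gene Krt42 (0.49, edgeR adjusted p 0.0133), the nectin genes Nectin2 (-0.20, adjusted p 0.00636) and Nectin3 (0.25, adjusted p 0.0187) and the desmoplakin gene Dsp (-0.23, adjusted p 0.0412).

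In siLuc against untreated cells, where 4.20% of all genes passed, the zinc finger repressor gene Prdm1 rose by 0.31 (edgeR adjusted p 0.0345) and the ETS factor gene Elf3 fell by 0.25 (adjusted p 0.0352, or 0.142 after GC correction). The tight junction scaffold gene Tjp1 rose by 0.32 (edgeR adjusted p 0.0312), and the integrin gene Itga5 of the mesenchymal list fell by 0.33 (adjusted p 0.0326, or 0.0757 after GC correction). With 1 library left out, Prdm1 and Itga5 passed in 3 of 9 fits, Elf3 in 2 and Tjp1 in 5. Their highest adjusted p came without the siLuc library of Set 3 (0.188 for Prdm1, 0.192 for Elf3, 0.154 for Tjp1 and 0.141 for Itga5), and leaving out the untreated library of Set 3 also ended all 4 calls. Of the Set 1 libraries, untreated experiment 1, siLuc experiment 1 and siStag3 experiment 1 each ended the calls of Prdm1, Elf3 and Itga5. Untreated experiment 3 ended those of Prdm1, Elf3 and Tjp1, and siLuc experiment 3 those of Elf3, Tjp1 and Itga5. With the GC correction 949 of all genes passed. Nectin4 (0.78, edgeR adjusted p 0.0388), Cldn12 (0.22, adjusted p 0.0495), Cgnl1 (0.27, adjusted p 0.0350) and Dsg2 (-0.25, adjusted p 0.00114) then passed too.

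In siStag3 against siLuc, 0 of 94 listed genes passed with edgeR, leaving out Rbm47, Grhl2 and Lad1, which are given with no test. At an unadjusted p under 0.05 there were 16 of the 94, against 7.88% of all genes, and DESeq2 called 0. Over all genes, DESeq2 called 22 and the GC correction 65. Of the 94, 2 passed with the GC correction, the desmosome genes Dsp (-0.36, edgeR adjusted p 0.0132) and Pkp2 (-0.37, adjusted p 0.0104). These encode desmoplakin and plakophilin.

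Between the sets, listed genes passed in both directions with edgeR. Against 42.7% of all genes, 3 of 16 regulators passed (2 higher in Set 3), 3 of 4 RBM47 relatives (1 higher), 7 of 13 adherens junction genes (2 higher), 13 of 19 tight junction genes (8 higher), 8 of 14 desmosome genes (1 higher), 3 of 7 keratins (3 higher), 7 of 11 apical and protease genes (5 higher) and 2 of 13 mesenchymal genes (0 higher). At most the 4 genes with the smallest p are named from each list. Of the regulators and RBM47 relatives, Prdm1 (log2 fold change 0.40), Ovol2 (0.63) and Dnd1 (0.71) were higher in Set 3, and Syncrip (-0.45) and Apobec1 (-0.32) lower. Of the junction genes, Cdh3 (0.51), Tjp3 (1.06), Crb3 (1.12) and Itgb4 (0.89) were higher, and Ctnnd1 (-0.25), Nectin3 (-0.40), Tjp1 (-0.48), Ocln (-0.99), Pkp2 (-0.56), Dsg2 (-0.37) and Dst (-0.36) lower. Jup, which encodes plakoglobin, was higher by 0.20 but at -0.0016 after GC correction.

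Keratins higher in Set 3 were Krt42 (1.23), Krt17 (2.45) and Krt19 (0.34). The membrane trafficking and protease genes Rab25 (0.89), Prss8 (0.67) and Spint2 (0.25) were higher too, and Spint1 (-0.25) and the mesenchymal list genes Zeb1 (-0.30) and Itga5 (-0.18) lower. After GC correction Ovol2 and Krt19 no longer passed (edgeR adjusted p 0.114 and 0.391), and the values moved to -0.11 for Syncrip, -0.37 for Itga5 and -0.42 for Spint1. With 1 library left out, Apobec1 passed in 5 of 9 fits, Ovol2 and Jup in 4, Itga5 in 3, Krt19 in 2 and Spint1 in 8. The highest edgeR adjusted p came without the siStag3 library of Set 3 for Apobec1 (0.245, value -0.19), Ovol2 (0.239), Jup (0.357) and Krt19 (0.241). It came without the untreated library of Set 3 for Itga5 (0.253) and Spint1 (0.0511). Of the keratins among the 10 genes, Krt8 (0.23) and Krt18 (0.30) did not pass.

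**Figure D4:**
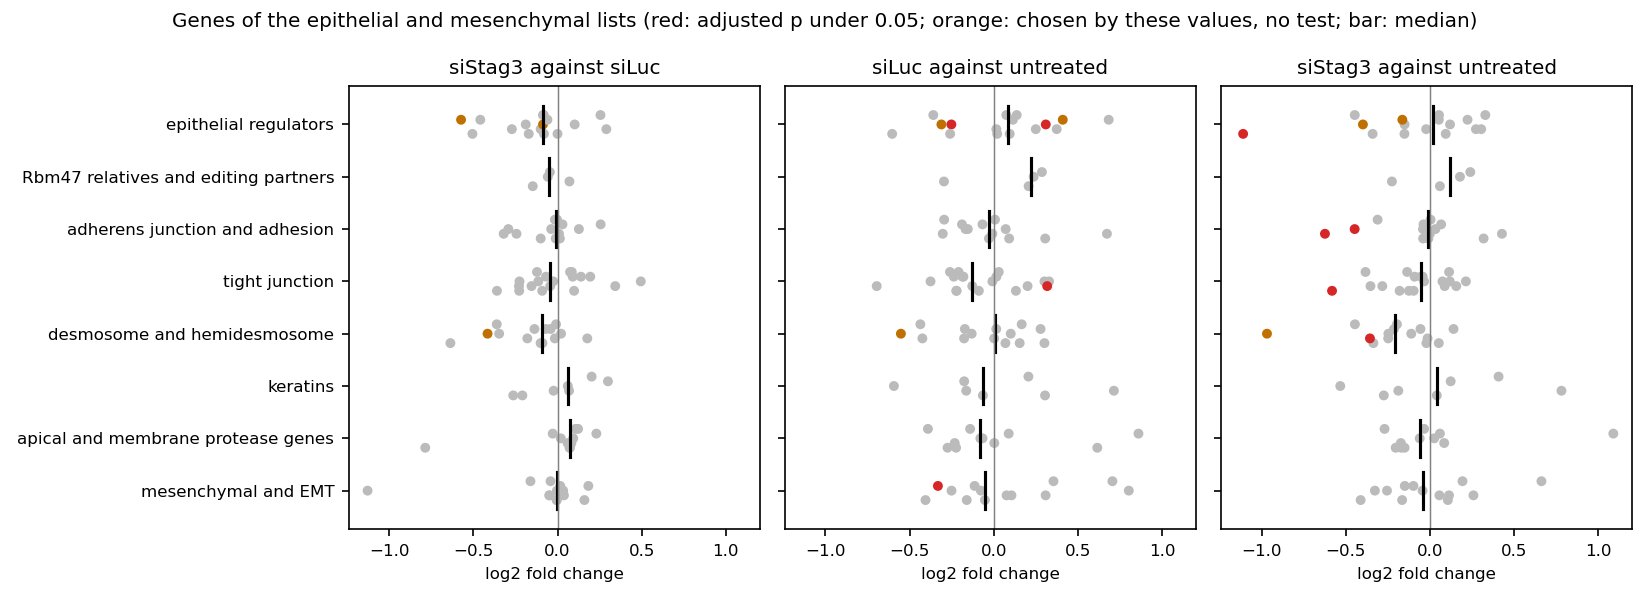
Log2 fold changes of the genes of each list in the 3 comparisons, with 1 point per gene, the median of the list as a bar, red for genes past the threshold and orange for Rbm47, Grhl2 and Lad1. The desmosome list has its median at -0.20 in siStag3 against untreated cells, and 11 of its 13 genes other than Lad1 lie below 0. The medians of the other lists lie from -0.06 to 0.12 there.

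Likeness to Rbm47, Grhl2 and Lad1 over the 9 libraries was measured by the root mean square distance of log2 CPM. Each value was centred on the mean of its set, and the nearest genes are given. For Rbm47 these were Slc35a5 (0.0885), Serpine2 (0.112) and Kif5c (0.118), of 9081 genes with a median distance of 0.264. For Grhl2 they were Zfp869 (0.0452), Polm (0.0509) and Uba1y (0.0520), where the median was 0.196. For Lad1 they were Ido2 (0.180), Cspg4b (0.189) and Aox3 (0.199), with a median of 0.431. Lad1 thus had no neighbour as near as those of Rbm47 and Grhl2.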

How the data were processed

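RNA was measured by bulk mRNA sequencing in 9 libraries of E14 cells. The authors deposited raw counts per gene as whole numbers. The submitters' processing notes name FastQC, Salmon, DESeq2 and the build GRCm39, without roles or versions. With Salmon named, the deposited counts may be rounded estimates. The annotation release and strand setting are not given in the sources used here. Column names were matched to the labels' groups (WT to untreated, Rluc to siLuc, SA3KD to siStag3), not to numbered replicates, and 0 columns were left unused.

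Counts were tested in R 4.3.3 with the quasi-likelihood test of edgeR 4.0.16 (TMM factors, filterByExpr, 14246 genes, all 10 genes among them) in 1 fit of all 9 libraries with a mean per group and an additive set term. The biological coefficient of variation was 7.62% with the set term and 14.6% without it. P-values are two-sided and adjusted by the Benjamini-Hochberg method, threshold 0.05. CPM were scaled by TMM factors. Coding transcript length, GC content and shared sequences come from GENCODE M21 transcripts, promoters from RefSeq. DESeq2 1.42.0, scaling by DESeq2 size factors and by total count, a fit without the low-count filter, a minimum mean of 50 counts, a fit of just the 6 libraries compared, no set term, a GC correction over 20 bins with the set term, and each library left out were tried.

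The 10 genes, the lists, the set term and the tests were chosen with earlier results of these data known. Named are the 10 genes, from each of 8 lists every gene that passed in a comparison (the 4 with the smallest p where more did), and the 3 genes most like Rbm47, Grhl2 and Lad1 (mean log2 CPM of 3 or more).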

Additional observations from a re-analysis of the deposited data

How the results depend on the processing

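By replicate number, no paired analysis was possible because no column name shows a replicate number of the labels. Libraries were instead matched by a block on the set and Set 1 experiment in the column names (the 3-level term). This block gave 4, 317 and 268 genes in siStag3 against siLuc, siLuc against untreated and siStag3 against untreated cells. It holds the siLuc library of Set 3, of experiment 1, together with the untreated and siStag3 libraries of Set 3, of experiment 5. Set 1 alone, the 3-level term of set and Set 1 experiment, the interaction and the E-box search were chosen after seeing the data. Depth limits Esrp1 and Krt18 most. For these changes the cause was not tested.

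In siStag3 against siLuc the count of genes past the threshold was 4. It was 0 without the set term (307 at an unadjusted p under 0.05), 22 with DESeq2, 1 with only the 6 libraries compared, 65 with the GC correction and 0 to 4 with 1 library left out. In siLuc against untreated cells it was 598. It was 1 without the set term, 1337 with DESeq2, 1801 with only the 6 libraries compared, 949 with the GC correction, 298 in Set 1 alone, 317 with the 3-level term and 111 to 2458 with 1 library left out, highest without the siStag3 library of Set 3. In siStag3 against untreated cells it was 361. It was 2 without the set term, 951 with the GC correction, 949 in Set 1 alone and 78 to 1591 with 1 library left out, lowest without siStag3 Set 1 experiment 1 and highest without the siStag3 library of Set 3. In Set 3 against Set 1 it was 6076, and 4162 to 6355 with 1 library left out. Scaling by total count only took the share of higher genes from 39.3% to 21.2% in siLuc against untreated cells, from 42.4% to 28.1% in siStag3 against untreated cells and from 50.2% to 61.7% between the sets.

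The fall of Epcam in siStag3 against untreated cells passed in all 9 fits that left out 1 library (-0.71 to -0.55) and lost its call without the set term alone. Its difference in siLuc against untreated cells passed with total count, DESeq2, the 6 libraries compared, Set 1 alone and without the siStag3 library of Set 3 (edgeR or DESeq2 adjusted p 0.0174 to 0.0377).

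Values near 0 changed sign. With the GC correction, Cdh1 was -0.0080 in siStag3 against siLuc, 0.037 in siLuc against untreated cells and 0.029 in siStag3 against untreated cells, Krt18 was -0.0025 in siStag3 against siLuc, Cldn6 was 0.024 in siLuc against untreated cells, and Esrp2 was -0.049 and Jup -0.0016 between the sets. In Set 1 alone Krt18 was -0.11 in siStag3 against siLuc. In siStag3 against untreated cells Cdh1 was 0.0049 with DESeq2 size factors, 0.0050 with the DESeq2 test, 0.0016 with no filter and 0.0046 with the 6 libraries compared. With total count only Rbm47 was 0.027 and Cdh1 0.033 between the sets. With 1 library left out, the ranges that crossed 0 in siLuc against untreated cells were -0.023 to 0.015 for Cdh1, -0.21 to 0.072 for Cldn6, -0.11 to 0.37 for Esrp1 and -0.30 to 0.015 for Krt8. In siStag3 against siLuc they were -0.011 to 0.041 for Cdh1, -0.31 to 0.10 for Cldn6, -0.013 to 0.46 for Esrp1, -0.21 to 0.22 for Krt18 and -0.20 to 0.083 for Krt8. In siStag3 against untreated cells they were -0.017 to 0.035 for Cdh1 and -0.40 to 0.0051 for Cldn6, and between the sets -0.061 to 0.43 for Esrp1 and -0.069 to 0.067 for Rbm47. Of the named list genes, the alternatives kept the call and direction 350 times, ended the call 36 times and turned the direction 1 time between the sets. These were 39 and 37 times with no turn in siLuc against untreated cells, and 55 and 20 in siStag3 against untreated cells.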
